A study of Mus musculus with 5 samples.

Results

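The comparison set the γH2AX ChIP-seq library of RbΔL/ΔL mouse embryonic fibroblasts against that of Rb+/+ fibroblasts, with the input library of the same study as common reference. The libraries were chosen by their labelled genotype, and they are 3 of the 5 libraries of the series. RbΔL/ΔL cells carry the ΔL allele of the retinoblastoma gene on both chromosomes, and Rb+/+ cells carry the normal allele on both. All were primary fibroblasts, proliferating at passage 4. The input is DNA taken before immunoprecipitation, and the labels give it no genotype. Each genotype is 1 library, and the labels do not say how many embryos it came from. The other 2 ChIP libraries of the series are RbΔL/+, heterozygous for the ΔL allele, and Rb-/-, null for Rb. They are also at passage 4 with 1 library each, and are used below for reference only.

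The retinoblastoma protein (RB) holds E2F transcription factors in check and helps to organise chromatin. The ΔL alteration lies in the cleft through which RB binds proteins that carry an LXCXE motif, and RB with this change can still bind E2F. The title of the series names a complex of RB, E2F1 and Condensin II, which compacts chromosomes, in connection with replication stress. γH2AX is histone H2AX phosphorylated by the kinases of the DNA damage response. It spreads from broken DNA and from stalled replication forks, so its place along the genome is read as a map of such sites. Satellite DNA, the tandemly repeated DNA of mouse centromeres and the heterochromatin beside them, is among the sequences that are demanding to replicate.

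The authors' counts per repeat class added up to 16061083 reads in RbΔL/ΔL, 17896985 in Rb+/+ and 17180437 in the input. Every share below is relative to that total, as a percentage or as RPM, the reads in every 1000000 of the library. With 1 library a side there is no replicate error and no test, and the 95% intervals given cover counting error only. A difference beyond its interval is thus a difference between 2 libraries and cannot be told apart from variation between cultures, immunoprecipitations or library preparations. Reads carried no molecular identifiers, so copies of 1 molecule cannot be told from separate molecules, and reads may not be independent.

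Satellites gained the most in RbΔL/ΔL in absolute terms, and the Pseudogene class lost the most in relative terms. Satellites were at 39514 RPM in the input, 27089 in Rb+/+ and 31793 in RbΔL/ΔL. The mutant library therefore lay between the wild type and the input, 0.470 percentage points (0.459 to 0.482) above Rb+/+, a ratio of 1.17. That gain was 80.2% of all the share that moved to classes higher in RbΔL/ΔL. Of the 12 classes, 3 (25%) were higher than in Rb+/+ by more than 1.1-fold with an interval clear of 1, namely satellites, the class named other and other transposable elements. Another 2 (16.7%) were lower by that measure, Pseudogene and simple repeats. With no fold limit, 4 intervals lay above 1, 6 below it and 2 included it.

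In general, pseudogenes are copies of genes that have lost their function. The authors counted reads in a class named Pseudogene, and the counts do not state which sequences that class holds. This class was at 114 RPM in the input, 698 in Rb+/+ and 170 in RbΔL/ΔL. Both ChIP libraries were above the input, and Rb+/+ stood far above RbΔL/ΔL. The ratio of RbΔL/ΔL to Rb+/+ was 0.243 (0.233 to 0.254), or 4.11-fold lower, on 2726 against 12486 reads. In absolute terms its share fell by 0.0528 percentage points, while that of LINEs, a far larger class, fell by 0.166.

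Simple repeats, runs of short motifs that can slow replication forks, were at 2345 RPM in the input, 2479 in Rb+/+ and 2111 in RbΔL/ΔL. They lay above the input in the wild type and below it in the mutant, at a mutant to wild-type ratio of 0.851 (0.839 to 0.864). Tandem repeats, counted by the authors in a class of their own, were below the input in both libraries and nearer to it in RbΔL/ΔL. They were at 25365 RPM in the input, 23906 in Rb+/+ and 25013 in RbΔL/ΔL, a ratio of 1.05 (1.04 to 1.05).

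LINEs, the long autonomous retrotransposons, were lower in RbΔL/ΔL and came close to the input. They were at 19520 RPM in the input, 21354 in Rb+/+ and 19696 in RbΔL/ΔL, and the mutant to wild-type ratio was 0.922 (0.918 to 0.927). SINEs, the short elements that LINE enzymes mobilise, were at 3959 in the input, 3881 in Rb+/+ and 3678 in RbΔL/ΔL, a ratio of 0.948 (0.937 to 0.958). For SINEs the mutant thus lay further below the input than the wild type did.

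Endogenous retroviruses, the remains of germline infections, were at 21174 RPM in the input, 21723 in Rb+/+ and 21335 in RbΔL/ΔL. Their ratio of 0.982 (0.978 to 0.987) was a small deficit. LTR retrotransposons, a class of only 742 reads in RbΔL/ΔL and 824 in Rb+/+, had a ratio of 1.00 (0.909 to 1.11). DNA transposons, which move by excision, had one of 1.02 (0.973 to 1.08). A difference from Rb+/+ was not detectable for these last classes at this depth.

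Other transposable elements were at 168 RPM in the input, 147 in Rb+/+ and 168 in RbΔL/ΔL, a ratio of 1.15 (1.09 to 1.21). The class named other was at 213, 183 and 210 in the same order, with a ratio of 1.15 (1.096 to 1.21). In both, Rb+/+ was the low library and RbΔL/ΔL was level with the input within counting error. The unique genome held 89.8% of reads in Rb+/+ and 89.6% in RbΔL/ΔL, a ratio of 0.997 that turned to 1.00, just above 1, once satellites were left out of the total.

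Across the whole profile RbΔL/ΔL was nearer to the input than Rb+/+ was. Its ratio to the input was closer to 1 for 10 of 12 classes, with SINEs and simple repeats as the exceptions, and it lay between the Rb+/+ value and 1 for 9. Both counts include LTR retrotransposons and DNA transposons, for which the ratio of RbΔL/ΔL to Rb+/+ had an interval that included 1. The shares of a library add up to its whole, so the classes are not independent. To turn the input profile into that of Rb+/+, 1.403% of reads would have to change class, against 0.860% for RbΔL/ΔL. Between the 2 ChIP libraries the figure was 0.586%.

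**Figure D1:**
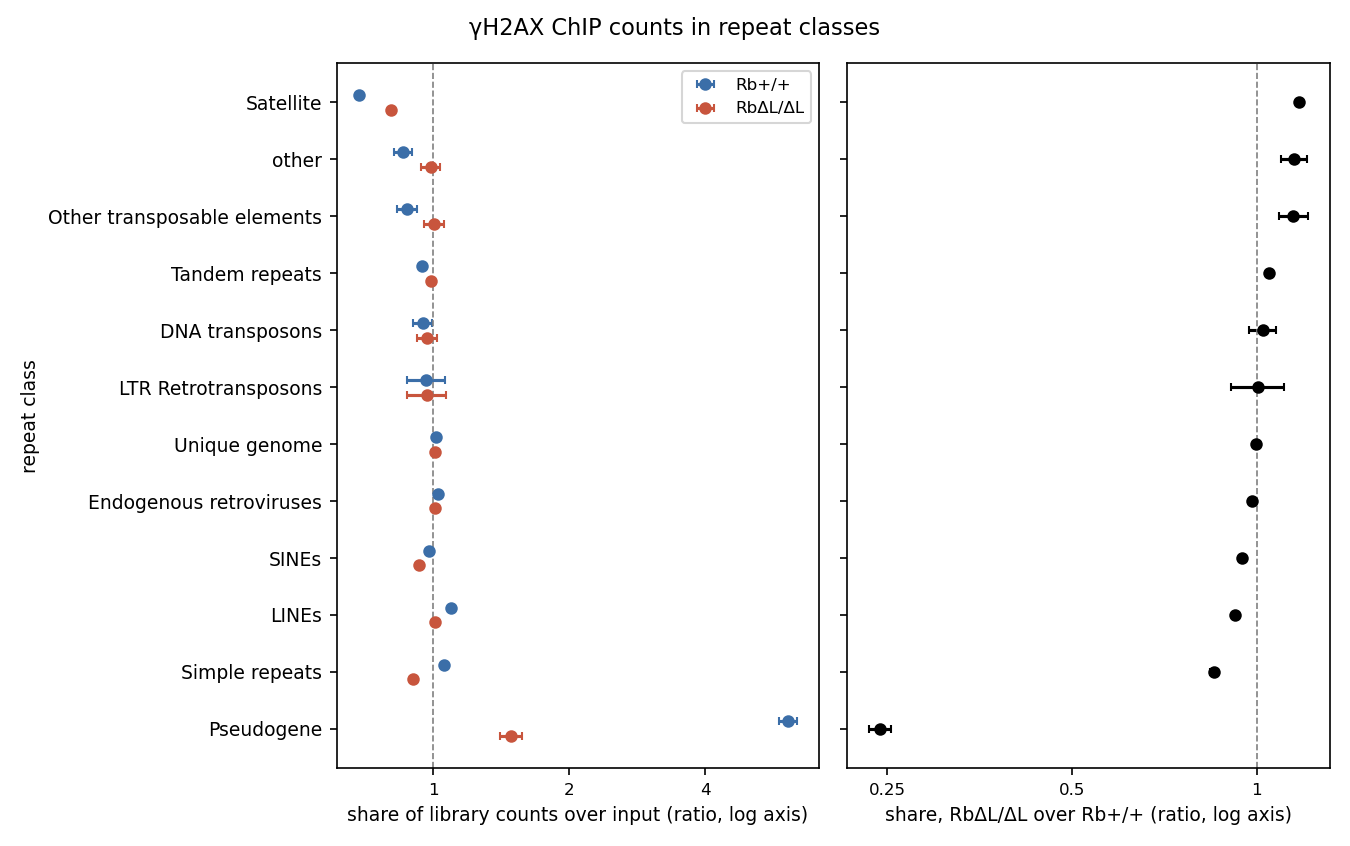
Share of library reads in each of the 12 repeat classes, as a ratio to the input for Rb+/+ (blue) and RbΔL/ΔL (red) on the left, and as the ratio of RbΔL/ΔL to Rb+/+ on the right, on log axes with 95% counting intervals and 1 library per group. Pseudogene stands at 6.11 times the input in Rb+/+ and at 1.49 times in RbΔL/ΔL, and satellites at 0.686 and 0.805 times.

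Within the satellites, most of the gain lay in a single family, and the remaining families taken as a sum were lower in RbΔL/ΔL. GSAT_MM, the major satellite that builds the pericentromeric heterochromatin of mouse chromosomes, was at 37259 RPM in the input, 24808 in Rb+/+ and 29797 in RbΔL/ΔL. Its gain of 0.499 percentage points (0.488 to 0.510) was 106% of the net gain of the class. The other families together held 0.228% of reads in Rb+/+ and 0.1996% in RbΔL/ΔL, a ratio of 0.875 (0.863 to 0.888). Among them SYNREP_MM and MMSAT4 were lower in RbΔL/ΔL, while SATMIN, ZP3AR, IMPB_01 and MurSAT1 were higher as shares of all reads, although SATMIN and IMPB_01 were lower as shares of satellite reads.

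SATMIN, the minor satellite on which the centromere itself is built, was at 526 RPM in the input, 463 in Rb+/+ and 505 in RbΔL/ΔL. Its share of all reads was higher in RbΔL/ΔL at a ratio of 1.09 (1.06 to 1.13), but as a share of satellite reads alone it was lower, at 0.930 (0.902 to 0.959). For every 100 reads of major satellite there were 1.41 of minor satellite in the input, 1.86 in Rb+/+ and 1.69 in RbΔL/ΔL. Both ChIP libraries therefore held more minor relative to major satellite than the input, and the mutant lay between.

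Of the 7 families with more than 3 reads in either library, 3 (42.9%) were higher in RbΔL/ΔL by more than 1.1-fold and 2 (28.6%) were lower. MMSAT4 was at 89.8 RPM in the input, 123 in Rb+/+ and 79.4 in RbΔL/ΔL, a ratio of 0.644 (0.601 to 0.690). SYNREP_MM, the second most abundant family, was at 1463, 1531 and 1217 in the same order, a ratio of 0.795 (0.780 to 0.810). Both families passed from above the input in the wild type to below it in the mutant.

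ZP3AR had the highest ratio of any family, 2.14 (1.83 to 2.49). It was at 27.6 RPM in the input, 14.1 in Rb+/+ and 30.1 in RbΔL/ΔL, on 252 reads in the wild type and 483 in the mutant. The wild type was again the library apart from the input, and the interval of the mutant's ratio to the input included 1 (0.958 to 1.23). MurSAT1 rested on 167 and 203 reads, with a ratio of 1.35 (1.104 to 1.66), and as a share of satellite reads its interval included 1 (0.941 to 1.42). IMPB_01 had a ratio of 1.08 (1.03 to 1.15) among all reads and of 0.924 (0.874 to 0.977) among satellite reads, so its direction depended on the denominator. The 6 other families had at most 1 read in either library.

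**Figure D2:**
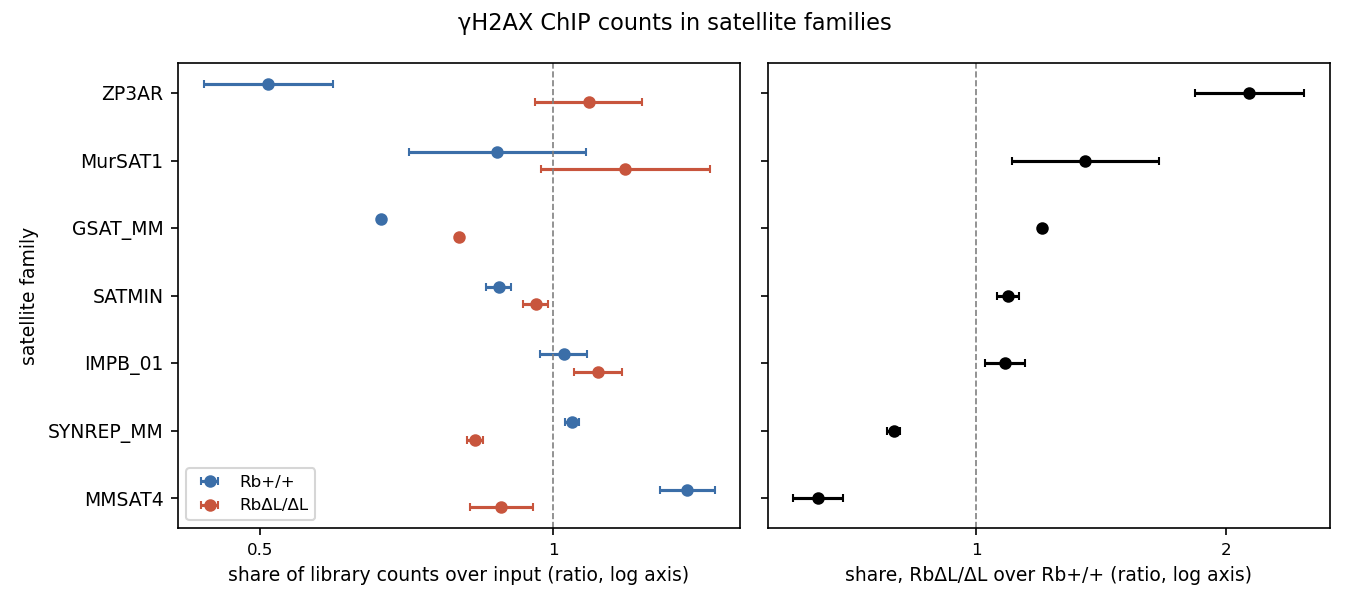
Share of library reads in the 7 satellite families with a ratio, drawn as in the plot of repeat classes, with log axes and 95% counting intervals. ZP3AR stands at 2.14 times and MMSAT4 at 0.644 times the Rb+/+ share, while GSAT_MM, which holds most satellite reads, is at 1.201 times.

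The other mutant libraries give the scale of these differences, although their ratios share the Rb+/+ library and are not independent of one another. For satellites the ratio to Rb+/+ was 1.17 in RbΔL/ΔL, 1.16 in RbΔL/+ and 1.16 in Rb-/-. For Pseudogene it was 0.243 in RbΔL/ΔL against 0.862 (0.838 to 0.886) and 0.595 (0.578 to 0.613), so the intervals of the 3 libraries did not meet. Simple repeats were at 0.851, 1.18 and 0.917 in the same order, and LINEs at 0.922, 0.952 and 1.0996. For both of these classes RbΔL/ΔL had the lowest value of the 3. LTR retrotransposons were at 1.00, 1.21 and 0.423, and the class named other at 1.15, 1.32 and 1.63, so RbΔL/ΔL stood nearest to Rb+/+. Among families, ZP3AR was at 2.14, 2.65 and 1.44 and MurSAT1 at 1.35, 2.47 and 0.770, both highest in RbΔL/+. MMSAT4 at 0.644, 0.718 and 0.869 and SYNREP_MM at 0.795, 0.894 and 1.14 were lowest in RbΔL/ΔL. GSAT_MM was at 1.20, 1.17 and 1.17.

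On the autosomes the authors listed fewer, lower-scoring peaks for RbΔL/ΔL. There were 1874 peaks against 3609 in Rb+/+, a ratio of 0.519, and they covered 0.609 Mb against 1.44 Mb. The authors' score, whose meaning no file header states and which is read here as larger for a smaller p-value, had a median of 59.57 in RbΔL/ΔL and 72.03 in Rb+/+. In RbΔL/ΔL 19 peaks (1.01%, 0.611 to 1.58) scored 100 or more, against 786 (21.8%, 20.4 to 23.2) in Rb+/+. A score under 60 was held by 52.8% and 7.65% of peaks. Scores and numbers of peaks depend on the depth and background of a library, so they do not measure how much γH2AX a genotype had.

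**Figure D3:**
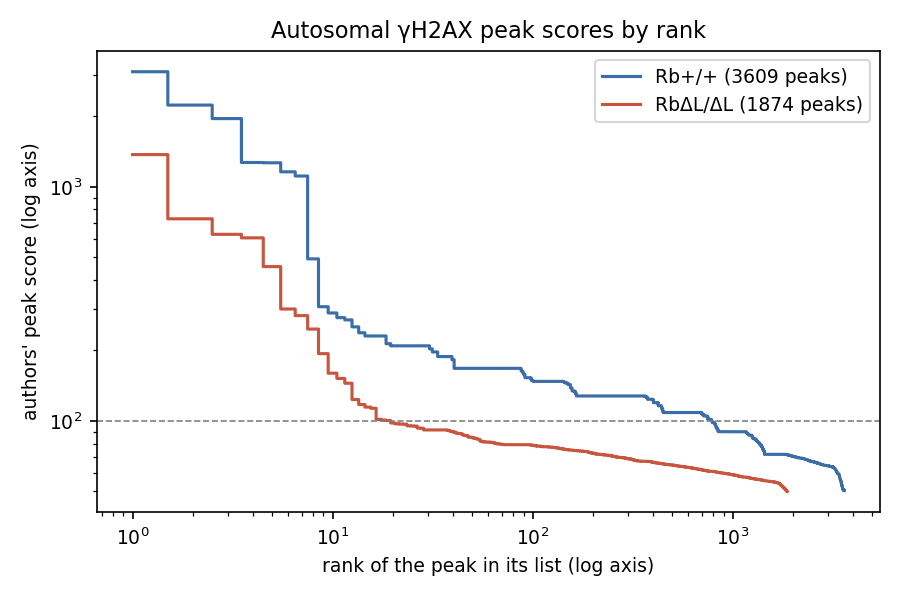
The authors' score of each autosomal peak against its rank in the list, both on log axes, for Rb+/+ (blue, 3609 peaks) and RbΔL/ΔL (red, 1874 peaks), with a dashed line at a score of 100. The Rb+/+ line descends in flat steps of tied scores and crosses 100 after 786 peaks, and the RbΔL/ΔL line crosses it after 19.

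The 2 lists also differed in how score and width went together. In Rb+/+, 402 peaks (11.1%) had the identical score of 72.03, whereas the commonest score in RbΔL/ΔL, 57.57, was held by 36 (1.92%). In Rb+/+ high-scoring peaks below the first 10 were narrow and low-scoring ones wide. The median width there was 214 bp for ranks 11 to 50, 220.0 bp for ranks 201 to 500 and 485 bp beyond rank 1874. In RbΔL/ΔL the median stayed between 290.0 and 328 bp over all ranks below the first 10. Across the peaks of a list, which share 1 library and are not replicates, Spearman's rho of width and score was -0.78 over 3609 peaks in Rb+/+ and -0.17 over 1874 in RbΔL/ΔL.

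The median width over the whole list was 321 bp in RbΔL/ΔL (quartiles 287 and 342) and 391 bp in Rb+/+ (285 and 502), a ratio of 0.821. That order turned when the comparison was limited to the top 1874 peaks of each list, with a ratio of 1.12, and to scores of at least 100, with a ratio of 2.03 on only 19 mutant peaks. The narrower median of RbΔL/ΔL thus held only with the low-scoring, wide peaks of Rb+/+ included. Peaks wider than 1000 bp were rare, 9 in RbΔL/ΔL and 6 in Rb+/+.

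**Figure D4:**
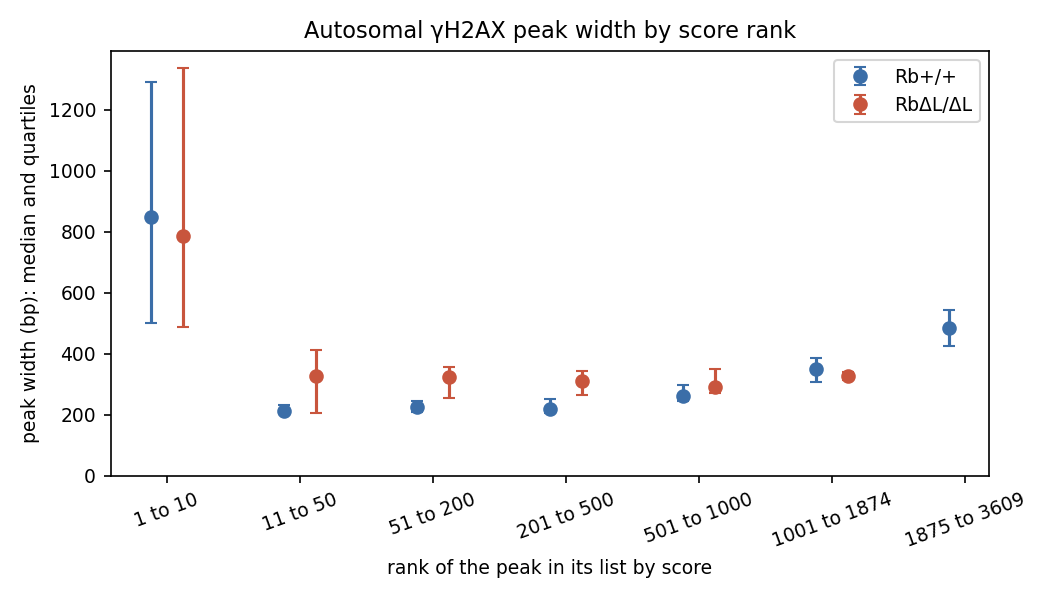
Median peak width in bp, with bars for the quartiles, in bins of score rank for autosomal peaks of Rb+/+ (blue) and RbΔL/ΔL (red); the last bin exists in Rb+/+ alone. In Rb+/+ the median goes from 214 bp at ranks 11 to 50 to 485 bp beyond rank 1874, and in RbΔL/ΔL it stays near 300 bp from rank 11 on.

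Few peaks of one list were found in the other. Of the RbΔL/ΔL peaks, 18 (0.961%, interval 0.570 to 1.51) overlapped an Rb+/+ peak by at least 1 bp, and 16 Rb+/+ peaks (0.443%, 0.254 to 0.719) overlapped an RbΔL/ΔL peak. For reference, Rb+/+ peaks covered 0.0603% of the autosomal stretch between their first and last positions, and RbΔL/ΔL peaks 0.0257% of theirs. These are shares of bases. Whole peaks meet by 1 bp more often than single bases do, and the rate for randomly placed peaks was not computed. Overlap with RbΔL/ΔL peaks was found for all 10 of the highest-scoring Rb+/+ peaks, for 2 of the next 40, and for 4 of the remainder. Among RbΔL/ΔL peaks it was found for 5 of the first 10, 4 of the next 40 and 9 of the remainder. The nearest Rb+/+ peak lay at a median distance of 217 kb from an RbΔL/ΔL peak, and 78 RbΔL/ΔL peaks (4.16%) had one within 10 kb.

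The overlapping peaks formed 16 regions on 9 autosomes, and 12 of these also held peaks in RbΔL/+ and Rb-/-. Coordinates are those of the authors' lists in the mouse build mm9; no gene annotation of that build was used, so regions are named by position. On chromosome 2, regions at 98502258 to 98503261, 98505037 to 98505539 and 98506259 to 98507607 held the peaks of rank 4, 8 and 1 in RbΔL/ΔL and of rank 3, 4 and 1 in Rb+/+. In Rb+/+ 4 peaks covered 3319 bp of this stretch, and in RbΔL/ΔL 3 covered 2455 bp. No input signal by position was analysed here, so it is not known whether the input also rises at the shared regions.

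At the centromeric end of chromosome 9 more peaks were listed in Rb+/+, as in the full autosomal lists. Rb+/+ had a chain of 12 peaks from 2999918 to 3036595, with gaps of at most 10 kb, that covered 9888 bp. RbΔL/ΔL had 6 peaks there, covering 4006 bp in 2 groups, at 2999987 to 3006922 and at 3023365 to 3026212. Over the autosomes RbΔL/ΔL had 0.519 times the peaks and 0.424 times the covered bases of Rb+/+. The lower counts in this stretch therefore do not set it apart from the full lists. The 5 shared regions of this stretch ranked 5, 8, 10, 12 and 19 in Rb+/+ and, region for region, 12, 48, 381, 1728 and 56 in RbΔL/ΔL. A further shared region, on chromosome 12 at 3109783 to 3110262 and so near the centromeric end too, ranked 9 in Rb+/+ and 1314 in RbΔL/ΔL.

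The widest peak of either list was on chromosome 17, where Rb+/+ had 1 peak of 6116 bp at 39979826 to 39985941 with rank 2. In RbΔL/ΔL the same stretch held 2 peaks, 3746 bp at rank 11 and 1510 bp at rank 190, with a gap between 39983679 and 39984266. Other shared regions were among the first 10 of each list, such as chromosome 9 at 35112647 to 35113256 (rank 7 in Rb+/+, 6 in RbΔL/ΔL) and chromosome 6 at 103598949 to 103599514 (rank 6 and 9). The lists differ in length, in tied scores and in the range of their scores, so these ranks place a region within its own list and do not measure a change between genotypes.

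The remaining 4 shared regions had low ranks in Rb+/+ and were absent from Rb-/-. They were on chromosome 13 at 43755490 to 43756030, chromosome 1 at 162616215 to 162616741, chromosome 5 at 56073906 to 56074711 and chromosome 15 at 74916179 to 74917568. Their Rb+/+ ranks were 1537, 3570, 2844 and 2569, and their RbΔL/ΔL ranks 132, 486, 1379 and 1793. Only the region on chromosome 15 was also listed in RbΔL/+, where it ranked 10. Over the 16 regions the score was lower in RbΔL/ΔL in 14, the exceptions being those on chromosomes 13 and 1. Scores depend on the depth and background of a library, so these differences do not measure a change in γH2AX.

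**Figure D5:**
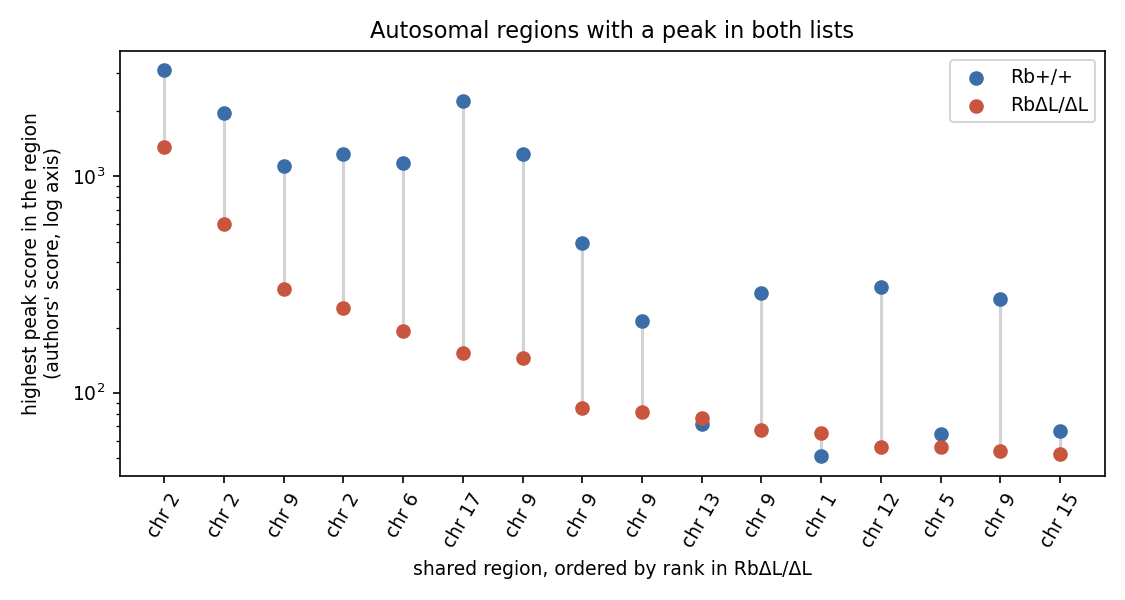
Highest peak score in each of the 16 autosomal regions with a peak in both lists, on a log axis, ordered by rank in RbΔL/ΔL, for Rb+/+ (blue) and RbΔL/ΔL (red) joined by a line. The Rb+/+ score is the higher in 14 regions, and the 9 regions of highest rank in RbΔL/ΔL score at least 213.8 in Rb+/+.

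Peaks found in RbΔL/ΔL without a counterpart in Rb+/+ included some of its highest. Chromosome 11 carried 3 adjoining peaks of ranks 2, 3 and 5, with scores of 729.91, 626.6 and 456.21, that covered 4461 of the 4628 bp between 74578883 and 74583510. The nearest Rb+/+ peak was 425 kb away, and neither RbΔL/+ nor Rb-/- had a peak there. This was the only group of 3 or more RbΔL/ΔL peaks, out of 4, with no Rb+/+ peak in it.

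The next such peaks were on chromosome 11 at 87236283 to 87236975 (rank 7, score 281.76) and chromosome 9 at 65049294 to 65049799 (rank 10, score 159.94). Both overlapped a peak of RbΔL/+ and none of Rb-/-. Of the 19 RbΔL/ΔL peaks with a score of at least 100, 12 were not in Rb+/+ and 7 (36.8%) were. In the full RbΔL/ΔL list only 0.961% of peaks overlapped one of Rb+/+, so being unshared was less common among these high-scoring peaks. Of those 12, 5 overlapped a peak of RbΔL/+, 0 overlapped one of Rb-/- and 7 were found in RbΔL/ΔL alone. Over the full list, 31 RbΔL/ΔL peaks (1.65%, 1.13 to 2.34) overlapped one of RbΔL/+, which has 3691 autosomal peaks. Overlap with Rb-/-, which has 1546, was found for 15 (0.800%, 0.449 to 1.32), so the lists to be met differed in length. These shares include peaks that also overlapped Rb+/+, and 12 of the 16 regions shared with Rb+/+ held peaks in both other lists. The shares among unshared peaks alone were not computed, so the 12 high-scoring peaks have no like-for-like reference.

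Peaks of Rb+/+ without a counterpart in RbΔL/ΔL began at rank 11, on chromosome 11 at 108872876 to 108873529 (score 276.12), a peak that RbΔL/+ and Rb-/- shared. The next 4, with scores of 252.28 to 230.64, were 208 to 218 bp wide and found in neither of the other lists. They were on chromosome 7 at 62458709 to 62458920, chromosome 2 at 33493204 to 33493411, chromosome 1 at 96796917 to 96797130 and chromosome 10 at 28377405 to 28377622. The peak of rank 11 was 654 bp wide, and the 3 highest unshared peaks of RbΔL/ΔL, on chromosome 11 at 74578883 to 74583510, were 1377 to 1574 bp wide. Rb+/+ also had 3 groups of 3 peaks with no RbΔL/ΔL peak in them, on chromosome 4 at 59648918 to 59660636, chromosome 1 at 155441078 to 155449549 and chromosome 7 at 53585067 to 53590064.

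Along the chromosomes the lists were spread alike within counting error. For 0 of 19 autosomes (0%) did the interval of the ratio of shares lie above 1, and for 0 of 19 (0%) below it. The highest ratio was that of chromosome 16, with 5.23% of RbΔL/ΔL peaks and 4.16% of Rb+/+ peaks (1.26, 0.981 to 1.61). The lowest was that of chromosome 1, with 7.04% and 8.45% (0.833, 0.685 to 1.01). The first 10 Mb, which in mouse adjoin the centromere, held 121 of the RbΔL/ΔL peaks (6.46%) and 196 of the Rb+/+ peaks (5.43%), a ratio of 1.19 (0.954 to 1.48) whose interval included 1.

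Peaks with another peak of the same list within 10 kb made up 2.99% (2.27 to 3.86) of RbΔL/ΔL and 3.69% (3.09 to 4.35) of Rb+/+. The ratio was 0.811 (0.596 to 1.102). A longer list brings its peaks closer together, but the effect of length alone was not tested. With the top 1874 peaks of each list, a limit that also left out low-scoring, wide peaks of Rb+/+, the ratio was 1.22 (0.829 to 1.79). Both intervals included 1. With a gap of 100 kb in place of 10 kb it was 0.631 (0.564 to 0.707) over the full lists, on 17.2% of RbΔL/ΔL and 27.2% of Rb+/+ peaks. That ratio was not taken with lists of equal length, so it cannot be told apart from the difference in length. Among the 19 RbΔL/ΔL peaks scoring at least 100, 8 had another such peak within 10 kb, against 20 of 786 in Rb+/+. Those 8 were the 3 peaks on chromosome 2, the 3 adjoining peaks on chromosome 11, and the pair on chromosome 11 at 87236283 to 87236975 and 87240145 to 87240631.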

How the data were processed

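γH2AX ChIP-seq reads of 1 Rb+/+ and 1 RbΔL/ΔL library and 1 input library were compared. The authors deposited whole-number read counts for 12 repeat classes and 13 satellite families per library, and families sum to their class. Per the submitters' processing notes, Bowtie 1.0, MACS 1.4.2 and the build mm9 were used, in roles not stated. How multi-mapping and duplicate reads were handled is not given in the sources used here. For peaks, the authors deposited 1 peak list per ChIP library with a score per peak, read here as minus 10 times the log10 of a p-value, which no header states. The sample number in each list's name is 1 above that in the labels, so all peak results rest on the sample each list was deposited with.

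Counts were divided by the library total. Shares were given exact (Clopper-Pearson) and ratios log-scale 95% intervals. The floor was 3 counts. A class was called at 1.1-fold with an interval clear of 1. Peaks on numbered autosomes counted as shared where they had 1 bp or more in common. With 1 library a side no test was run. Named were every class, every family above the floor, the 10 highest peaks of each list, all shared regions, the 5 highest unshared peaks and the 5 highest groups of at least 3 peaks with gaps of at most 10 kb. Wide peaks, the 12 peaks scoring at least 100 outside Rb+/+, chromosomes and rank bins were singled out after their values were seen. Members and lists were chosen with earlier results of these data known. Alternatives were other denominators and scalings, a score limit of 100, merging within 1000 bp, equal list lengths, other overlaps and all chromosomes. Tools were matplotlib 3.10.9, scipy 1.17.1, pandas 2.3.3 and numpy 2.4.6 in Python 3.11.15. Intervals and overlaps were tested on simulated data, the overlaps also against bedtools 2.31.1. The simulated counts followed the counting model that the intervals assume. They check the calculation and say nothing about duplicates or variation between libraries.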

Additional observations from a re-analysis of the deposited data

Results flagged for a closer look

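Simple repeats and the satellite families MMSAT4 and SYNREP_MM lay above the input in Rb+/+ and below it in RbΔL/ΔL, each beyond counting error. The difference was not tested, as it rests on 1 library a side. For simple repeats the Rb+/+ share was 1.06 times that of the input (interval 1.04 to 1.07) and the RbΔL/ΔL share 0.900 times (interval 0.888 to 0.914). MMSAT4 was at 1.37 (1.29 to 1.47) and 0.884 (0.821 to 0.953), and SYNREP_MM at 1.05 (1.03 to 1.06) and 0.831 (0.816 to 0.847). As shares of satellite reads alone, both families were above the input in both libraries, MMSAT4 at 2.002 and 1.099 times and SYNREP_MM at 1.53 and 1.03 times, so the change of side depends on the denominator while the lower value in RbΔL/ΔL does not.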

How the results depend on the processing

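Ratios are RbΔL/ΔL over Rb+/+. The satellite ratio of 1.17 became 1.14 among repeat reads alone and 1.16 with each library's median class ratio to input set to 1. The GSAT_MM ratio became 1.02 among satellite reads and 1.21 without satellites in the total. The direction turned for SATMIN (0.930) and IMPB_01 (0.924) among satellite reads, and for the unique genome (1.00, just above 1) without satellites in the total. Limiting peaks to scores of at least 100 left a ratio of peak numbers of 0.0242, a median width ratio of 2.03, overlap of 36.8% of RbΔL/ΔL and 0.891% of Rb+/+ peaks, a neighbour ratio of 16.5 and 1 autosome with an interval above 1, all on 19 RbΔL/ΔL peaks. With equal numbers of peaks the width ratio was 1.12, the neighbour ratio 1.22, and 1 autosome had an interval below 1. Overlap within 1000 bp gave 0.720% of Rb+/+ peaks, and a gap of 1 kb a neighbour ratio of 1.28. The cause of these shifts was not tested. No paired analysis was possible because there was 1 library per genotype. At this depth the intervals of the LTR and DNA transposon ratios included 1.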
